A study of Mus musculus with 16 samples.

Results

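The suckling-to-weaning switch genes described here are 7 genes whose levels in the mouse intestine are known to change when pups pass from milk to solid food. They were chosen by name, as every array spot other than a control that carries one of the gene names, and the 7 were found among the 36870 gene names on the array, on 11 probes. Of these, 5 are of the suckling type (Prdm1, Ass1, Lct, Fcgrt and Nox4) and 2 of the weaned type (Sis and Treh). All 7 passed the filter on dim probes, after which 36711 genes were tested.

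Colon RNA of 16 RjOrl:SWISS pups, an outbred stock kept under SPF conditions, was hybridised at weaning on 1-colour Agilent arrays, 1 array per pup. The C-section delivery (CSD) group held 8 pups, 4 females and 4 males, taken from the womb by hysterectomy at the end of gestation and nursed by mothers that had just delivered vaginally. The vaginal delivery (VD) group held 8 pups, 2 females and 6 males, whose litters were exchanged between mothers, so that pups of both groups were raised by a foster mother. Weaning came before the ages at which the study induced colitis. The labels give a mother for each pup, mothers 3 and 4 for CSD with 4 pups each and mothers 5 and 6 for VD with 5 and 3 pups, without saying in which sense; the study's methods put the biological mother in the model, and the foster mother of each pup is not given in the sources used here. Since no mother had pups of both groups, delivery and mother cannot be told apart beyond the spread between 2 litters a group, and p-values measure mostly the spread between pups. Pups are named by group and number as in the labels. Between 61.6% and 64.5% of the spots were well above background (the scanner software's own call) on the CSD arrays and between 58.7% and 64.9% on the VD arrays. Values are background-corrected, quantile-normalized log2 intensities, fold changes are log2 differences of CSD minus VD, and levels of the switch genes are not set against each other, since brightness depends on the probe. For lists of cell type markers the summed intensity and the gene with the highest signal are given, which also depend on the probes and are read between groups only.

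At weaning the intestinal epithelium of rodents is replaced by an adult type. The suckling epithelium takes up maternal antibodies from milk, splits lactose and makes arginine from citrulline, and the transcriptional repressor Blimp-1, encoded by Prdm1, is known to hold back the adult programme. The adult epithelium digests sucrose and other plant sugars at its brush border. These changes are best known from the small intestine, and several of the genes are also used by other cells of the gut wall.

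A value reads the stretch of the gene that its probe covers; apart from a Nox4 probe that crosses a splice junction, whether a probe lies in an exon, an intron or a UTR was not determined here. Shown are the deposited 60-base probes of 2 genes with signal on every array, followed by 2 Nox4 probes without it, 5′ to 3′, with positions on mm9 as the files give them. The Prdm1 probe lies at chr10:44166619-44166678 on the minus strand and the Fcgrt probe at chr7:52350556-52350615, also on the minus strand. The first Nox4 probe is given as chr7:94472458-94487478, a span of 15021 bases for 60 bases of probe, so that it crosses a splice junction, and the second lies at chr7:94545342-94545401, both on the plus strand.
Prdm1 A_66_P121752: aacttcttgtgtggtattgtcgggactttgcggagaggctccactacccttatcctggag
Fcgrt A_51_P161890: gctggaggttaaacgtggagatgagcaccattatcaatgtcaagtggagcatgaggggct
Nox4 A_51_P369311: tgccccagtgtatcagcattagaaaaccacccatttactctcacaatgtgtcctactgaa
Nox4 A_55_P2745049: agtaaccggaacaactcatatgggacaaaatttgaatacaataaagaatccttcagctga

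In the weaned colon, 4 of the 7 genes gave a signal well above background on all 16 arrays, beside 20601 of the 36711 genes tested. The 4 were Prdm1, Ass1, Fcgrt and, through 1 of its 4 probes, Nox4. The sugar-splitting enzymes among the 7 genes gave little such signal. Mgam, which encodes another sugar-splitting enzyme and is not among the 7, gave it on all 16 arrays. The probe of Lct, which encodes lactase, and both probes of Sis, which encodes sucrase-isomaltase, were not well above background on any array, and Treh, which encodes trehalase, was so on 4 arrays (2 CSD, 2 VD). None of the 11 probes was saturated. None of the 7 genes passed the test between CSD and VD (limma, adjusted p under 0.05), beside 460 of all 36711 genes (1.25%; 0.706% higher and 0.548% lower in CSD), and for none did the values of the 2 groups lie apart, beside 0.493% of all genes with a value on every array. At an unadjusted p under 0.05, 2 of the 7 differed, Ass1 and Fcgrt, both lower in CSD, beside 14.5% of all genes in either direction, 7.09% lower in CSD and 7.37% higher. The median fold change was -0.02 over the 7 genes and -0.05 over the 4 detected on every array, beside 0.003 over all genes tested.

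**Figure D1:**
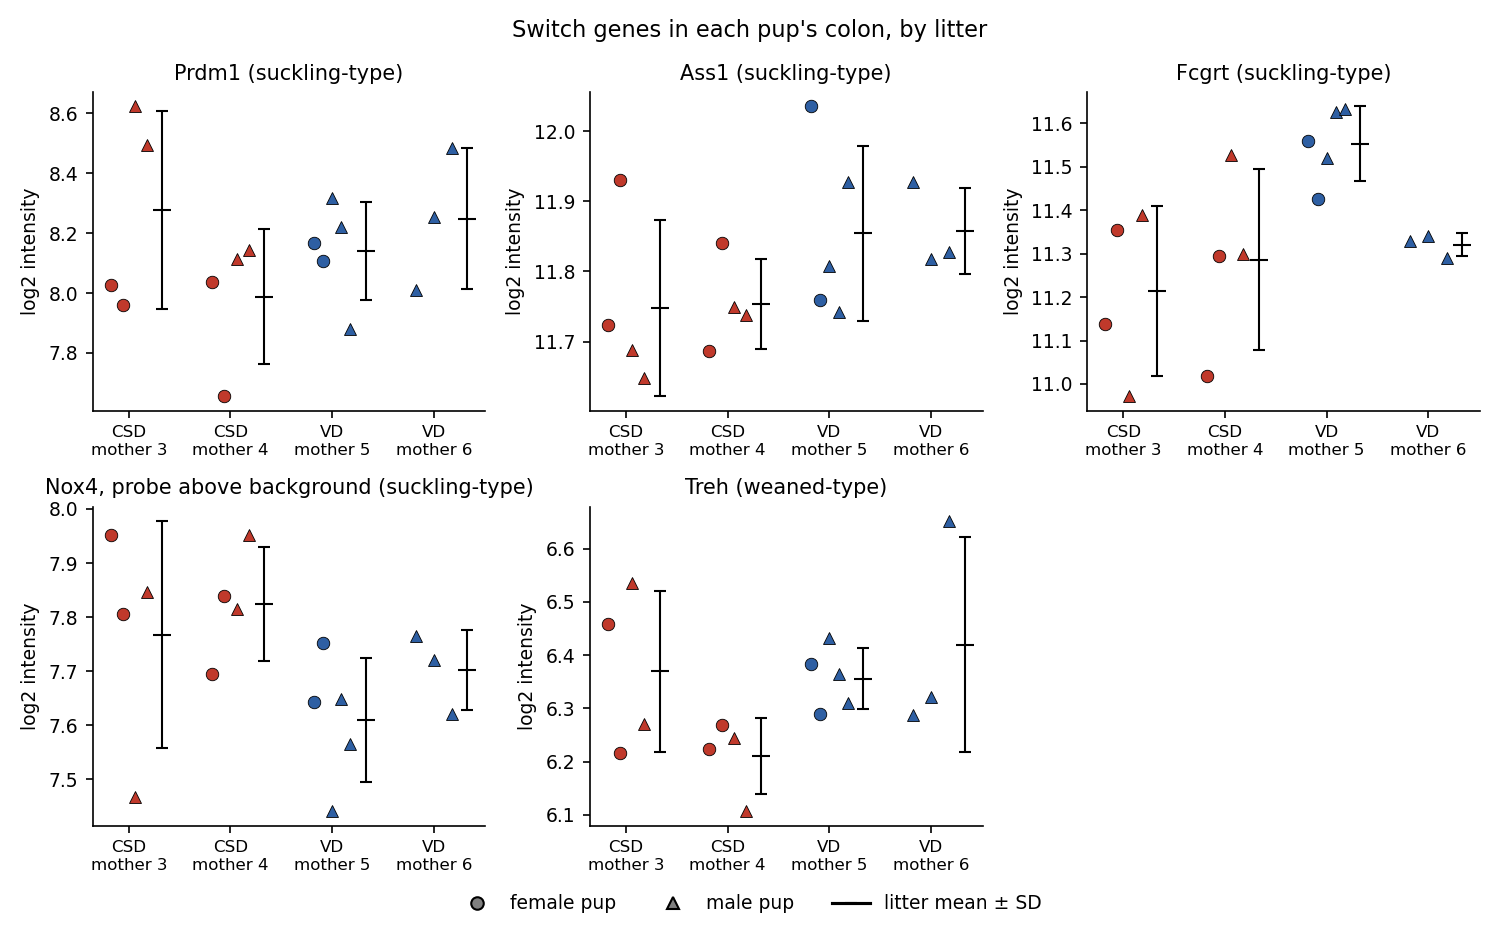
Log2 intensity of 5 switch genes in each pup, by litter, with circles for females, triangles for males, red for CSD and blue for VD, and the litter mean ± SD beside the points; each panel has its own axis. Fcgrt spans 11.42 to 11.63 among the 5 pups of mother 5 and 11.29 to 11.34 among the 3 of mother 6, and the values of CSD and VD overlap in every panel.

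Among the suckling-type genes, Prdm1 encodes Blimp-1, which is also the master regulator of plasma cells. Its log2 intensity ran from 7.66 through a median of 8.07 to 8.62 in CSD pups and from 7.88 through 8.19 to 8.48 in VD pups. CSD pups held both the lowest (CSD 2) and the highest values (CSD 8 and CSD 9), so that the VD range lay inside the CSD range. The means were 8.13 ± 0.30 in CSD pups and 8.18 ± 0.19 in VD pups (SD, n = 8 each), and the fitted fold change was 0.02 (SE 0.11, 95% CI -0.21 to 0.25; limma adjusted p = 0.962, exact permutation p = 0.708). The fit holds a term for sex, and without that term the fold change was -0.048, with the sign of the difference between the means. The interval of the reported fit leaves room for differences of about the size of the SD in either direction.

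Ass1 encodes argininosuccinate synthase, which makes the precursor of arginine from citrulline and aspartate. Its values ran from 11.65 through 11.73 to 11.93 in CSD pups and from 11.74 through 11.82 to 12.04 in VD pups. The lowest 5 values all belonged to CSD pups and the highest to VD 4, with overlap between them. The fold change was -0.12 (SE 0.05, 95% CI -0.23 to -0.02), with an unadjusted limma p = 0.0228, an adjusted p = 0.241 and an exact permutation p = 0.0485. It also had the smallest p of the 7 genes between the 2 slides, at 0.12 higher on slide 2 (limma unadjusted p = 0.0067, adjusted p = 0.594), where each slide held 4 CSD and 4 VD pups. Within slide 1 the group means were 11.71 in CSD and 11.78 in VD, and within slide 2 they were 11.79 and 11.93. The 4 litter means were 11.75 for both CSD mothers, 11.85 for mother 5 and 11.86 for mother 6, so that litters of a group lay closer to each other than to those of the other group.

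Fcgrt encodes the neonatal Fc receptor, which carries IgG across the suckling epithelium and recycles IgG and albumin in endothelium and macrophages of all ages. Its values ran from 10.97 through 11.30 to 11.53 in CSD pups and from 11.29 through 11.47 to 11.63 in VD pups. The lowest 3 values were of CSD pups and the highest 3 of VD pups, and 7 of 8 CSD pups lay under the VD median. The means were 11.25 ± 0.19 (SD, n = 8) and 11.47 ± 0.14 (SD, n = 8), and the fold change was -0.20 (SE 0.08, 95% CI -0.38 to -0.02), with an unadjusted limma p = 0.0292, an adjusted p = 0.270 and an exact permutation p = 0.021. The highest litter mean was that of mother 5, whose 5 pups had a mean of 11.55 ± 0.09 (SD), against 11.32 ± 0.03 (SD) for the 3 pups of mother 6 and 11.21 and 11.29 for the litters of mothers 3 and 4. Without the litter of mother 5 the fold change was -0.02 (limma adjusted p = 0.956) in a fit that called 0.515% of all genes, and without that of mother 6 it was -0.29 and passed the test (limma adjusted p = 0.0345), in a fit that called 2265 genes, or 6.17%. On slide 1 the fold change was -0.36 and on slide 2 it was -0.06, with CSD means of 11.11 and 11.39 and VD means of 11.48 and 11.45.

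In RNA of the whole gut wall, fewer cells of a type and less RNA per cell cannot be told apart. Markers of 2 cell types that hold Fcgrt lay lower in CSD in the same arrays. Of 10 endothelium markers, all 10 were well above background on every array and had a negative fold change, none passed the test, and their mean log2 intensity was 8.75 ± 0.08 in CSD pups and 8.89 ± 0.07 in VD pups (SD, n = 8 each). Their summed linear intensity was 6168 ± 430 (SD, n = 8) and 7036 ± 554 (SD, n = 8). The one with the highest signal, Plvap, a protein of capillary openings, was at 11.10 and 11.38. Of 10 macrophage markers measured, all were well above background on every array, 8 had a negative fold change, none passed the test, and the mean log2 intensity was 9.73 ± 0.24 in CSD pups and 9.94 ± 0.14 in VD pups (SD, n = 8 each), with summed intensities of 14750.3 ± 2893 (SD, n = 8) and 17909.7 ± 1619 (SD, n = 8). The highest signal among these was that of Lyz2, a lysozyme, at 12.54 and 12.98. By litter, endothelium markers averaged 8.73, 8.77, 8.91 and 8.86 for mothers 3, 4, 5 and 6, and macrophage markers 9.78, 9.69, 9.89 and 10.02. The part of these cells in the Fcgrt values was not tested.

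Nox4 encodes an NADPH oxidase that makes hydrogen peroxide, and is also used by endothelium, fibroblasts and smooth muscle. Only the probe A_66_P109751, placed at chr7:94436116-94436175 on the plus strand of mm9 and designed on a transcript that the files give by an Ensembl identifier, was well above background, on all 16 arrays, so that detection of Nox4 rests on this stretch alone. The 3 other probes, which include both shown above, were not well above background on any. The first of these crosses the junction described above. With A_66_P109751, values ran from 7.47 through 7.83 to 7.95 in CSD pups and from 7.44 through 7.65 to 7.76 in VD pups. The pups CSD 3, CSD 7, CSD 9, CSD 2, CSD 6 and CSD 5 lay above all VD pups, while CSD 8 was next to the lowest of all. The means were 7.80 ± 0.16 (SD, n = 8) and 7.64 ± 0.11 (SD, n = 8), and the fold change was 0.14 (SE 0.07; limma unadjusted p = 0.0655, adjusted over all probes p = 0.373, exact permutation p = 0.0418). Testing probe by probe called 980 of 56366 probes (1.74%). Averaged with the 3 dim probes, as for every gene in the table, Nox4 had a fold change of 0.02 (SE 0.03, 95% CI -0.04 to 0.08; limma adjusted p = 0.804). Since 3 of the 4 probes were not well above background, that value says little of the gene. Of the markers of cells that use Nox4, 9 of 10 for smooth muscle, 6 of 10 for fibroblasts and all 10 for endothelium had a negative fold change, none passed the test, and the part of these cells in the Nox4 values was not tested. Enteric glia markers, the remaining list, had 7 positive and 3 negative fold changes, with none called.

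Lct gave log2 intensities between 5.98 and 6.21 in CSD pups and between 6.00 and 6.39 in VD pups, and was not well above background on any array. Its fitted fold change of -0.02, which is also the median over the 7 genes, is thus a difference between values that were not well above background. The dimmest 1% of the probes that were well above background lay at or under 6.39 to 6.64, depending on the array.

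**Figure D2:**
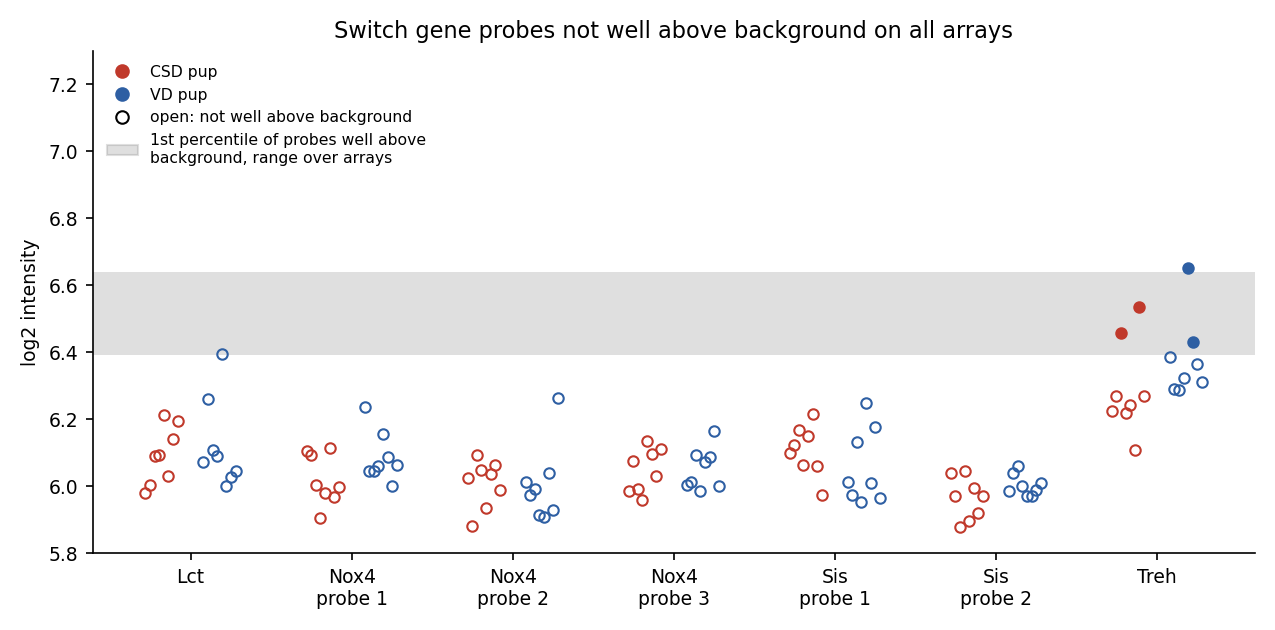
Log2 intensity of the 7 switch gene probes that were not well above background on all 16 arrays, for CSD pups (red) and VD pups (blue), filled where the scanner software called the spot well above background. The grey band is the range over arrays, 6.39 to 6.64, of the 1st percentile of probes well above background, and only Treh reaches it with called spots, on 4 arrays.

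Of the weaned-type genes, Sis was measured by 2 probes. The first ran from 5.95 to 6.25 and the second from 5.88 to 6.06 over the 16 arrays, and neither was well above background on any. Lct and Sis are also defining markers of small intestine enterocytes, as are Apoa1 and Apoa4, apolipoproteins of fat absorption, which likewise were not well above background on any array, while Fabp2, a fatty acid carrier, and Anpep, an aminopeptidase, were so on all 16. In all, 8 of the 13 small intestine markers were well above background on every array, among them Fabp6 and Slc10a2, which handle bile acids in the ileum, Rbp2, Mttp and Enpep, and 4 on none. All 10 genes of the colonocyte list, which also holds the goblet cell mucin Muc2, were well above background on every array, as the colon label has it. With 8 markers of the small intestine list detected too, detection alone does not tell the parts of the gut apart.

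Treh values ran from 6.11 through 6.26 to 6.54 in CSD pups and from 6.29 through 6.34 to 6.65 in VD pups. The 4 pups in which the probe was well above background, CSD 3, CSD 8, VD 8 and VD 9, came from 3 litters. In the other pups, 6 of each group, it was not, so that the order of their values is not read and the fold change is mostly a difference between such values. The fold change was -0.08 (SE 0.07, 95% CI -0.23 to 0.06; limma adjusted p = 0.627, exact permutation p = 0.193). The size differed between processing settings, at -0.54 and -0.51 with the scanner-corrected intensity (quantile normalized and minus the 75th percentile), -0.24 with a normexp offset of 0 and -0.22 in the deposited matrix, and none of these passed the test (limma adjusted p from 0.553 to 0.590).

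**Figure D3:**
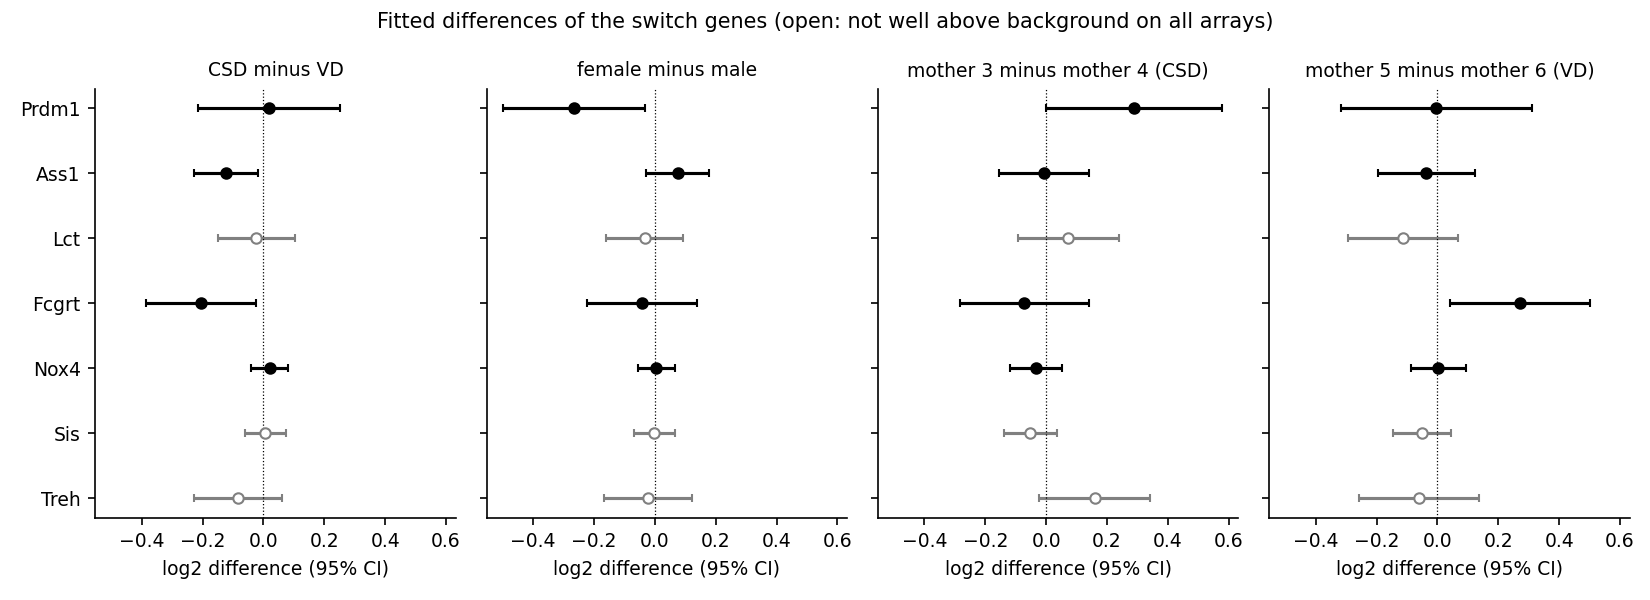
Fitted log2 differences of the 7 genes with 95% confidence intervals for delivery, sex and the 2 litter contrasts; open symbols mark genes not well above background on all arrays, and Nox4 is the mean of its 4 probes, 3 of them dim. The largest difference is that of Prdm1 between mothers 3 and 4, at 0.29, and the intervals of most genes include 0.

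The litters of 1 delivery mode were then compared with each other, a contrast that delivery cannot enter. Between mothers 5 and 6 none of the 7 genes passed the test, beside 321 of all genes (0.874%). Fcgrt was 0.27 higher in the litter of mother 5 (SE 0.11, 95% CI 0.04 to 0.50; limma unadjusted p = 0.0237, adjusted p = 0.322). This is larger than its fold change between CSD and VD, a difference that was not tested. An unadjusted p under 0.05 was thus seen for 1 of 7 genes, beside 11.5% of all genes. Between mothers 3 and 4 none passed either, beside 0.0872% of all genes and 7.69% at an unadjusted p under 0.05, and the smallest p was that of Prdm1, at 0.29 higher in the litter of mother 3 (SE 0.13; limma unadjusted p = 0.0503, adjusted p = 0.651).

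Between female and male pups none of the 7 genes passed the test, beside 0.0599% of all genes, and 1 of 7 had an unadjusted p under 0.05, beside 6.45%. This was Prdm1, with a difference of -0.27, female minus male (SE 0.11, 95% CI -0.50 to -0.03; limma unadjusted p = 0.0278, adjusted p = 0.744). In CSD the 4 females had a mean of 7.92 ± 0.18 (SD) and the 4 males of 8.34 ± 0.25 (SD), and the highest female, at 8.04, lay under the lowest male, at 8.11. In VD the 2 females had a mean of 8.14 and the 6 males of 8.19 ± 0.22 (SD), and the females lay inside the range of the males. Both VD females were of mother 5, whose 3 males also had a mean of 8.14, while mother 6 had males only. The VD means by sex are thus mixed with litter. The test of whether the sex difference itself differed between delivery modes gave -0.37 (SE 0.21; limma unadjusted p = 0.099, adjusted p = 0.981), and none of the 7 genes passed it, beside 0.00272% of all genes tested, while 4.72% of all genes and none of the 7 had an unadjusted p under 0.05. No gene on the array passed the test between the slides, where 7.85% had an unadjusted p under 0.05.

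Correlations between pairs of the 4 detected genes over the 16 arrays, which share slides, litters and normalization, were of both signs. The highest Pearson correlation was that of Ass1 with Fcgrt, at 0.46, and it was 0.29 once litter means were subtracted. The lowest was that of Prdm1 with Ass1, at -0.42, and -0.60 within litters. Prdm1 with Nox4 was at -0.41, and -0.30 within litters, and the remaining pairs lay between -0.18 and 0.09. Of all 20548 genes well above background on every array and compared, those whose values followed a member most closely over the 16 arrays were, for Prdm1, 6030419C18Rik (r = 0.84), Lcmt2 (0.84) and Frem2 (0.83). For Ass1 they were Cbx7 (0.87), Slco2b1 (0.83) and Sh3gl2 (0.82). For Fcgrt they were Tm4sf1 (0.88), Zfp512 (0.88) and Adam19 (0.84). None of these 9 genes was called between CSD and VD, and none is another member. Of the others, Nox4 was followed by Nudt17 (0.80), LOC108167801 (0.79) and a transcript that the files name by its position alone (0.81), and Treh by Dnajc14 (0.87), Ciz1 (0.85) and another such transcript (0.88). The Nox4 value here is the mean of 1 probe well above background on all 16 arrays and 3 on none, and the Treh probe was so on 4. For Lct these were Raver2 (0.87), Hspb6 (0.83) and Tnnc2 (0.82), and for Sis Lrig1 (0.82), Nop14 (0.81) and Bcan (0.79), but Lct and Sis were not well above background on any array. Values of r about as high were thus also found for members without such signal. All these genes are the 3 highest of 20548 for a member, and how high r comes by such a search alone was not tested. Without the 2 arrays farthest from the member's median, r fell for all but Lcmt2 (0.87). It fell to 0.55 for the transcript named by position that followed Nox4 and to 0.66 for Raver2.

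The 7 genes belong to pathways whose other genes were listed beside them, 113 genes in 8 lists without the members. Of these, 2 passed the test between CSD and VD (1.77%), both higher in CSD, beside 1.25% of all genes and 2.03% of the genes well above background on every array. At an unadjusted p under 0.05 there were 24 (21.2%), beside 14.5% and 21.3%.

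**Figure D4:**
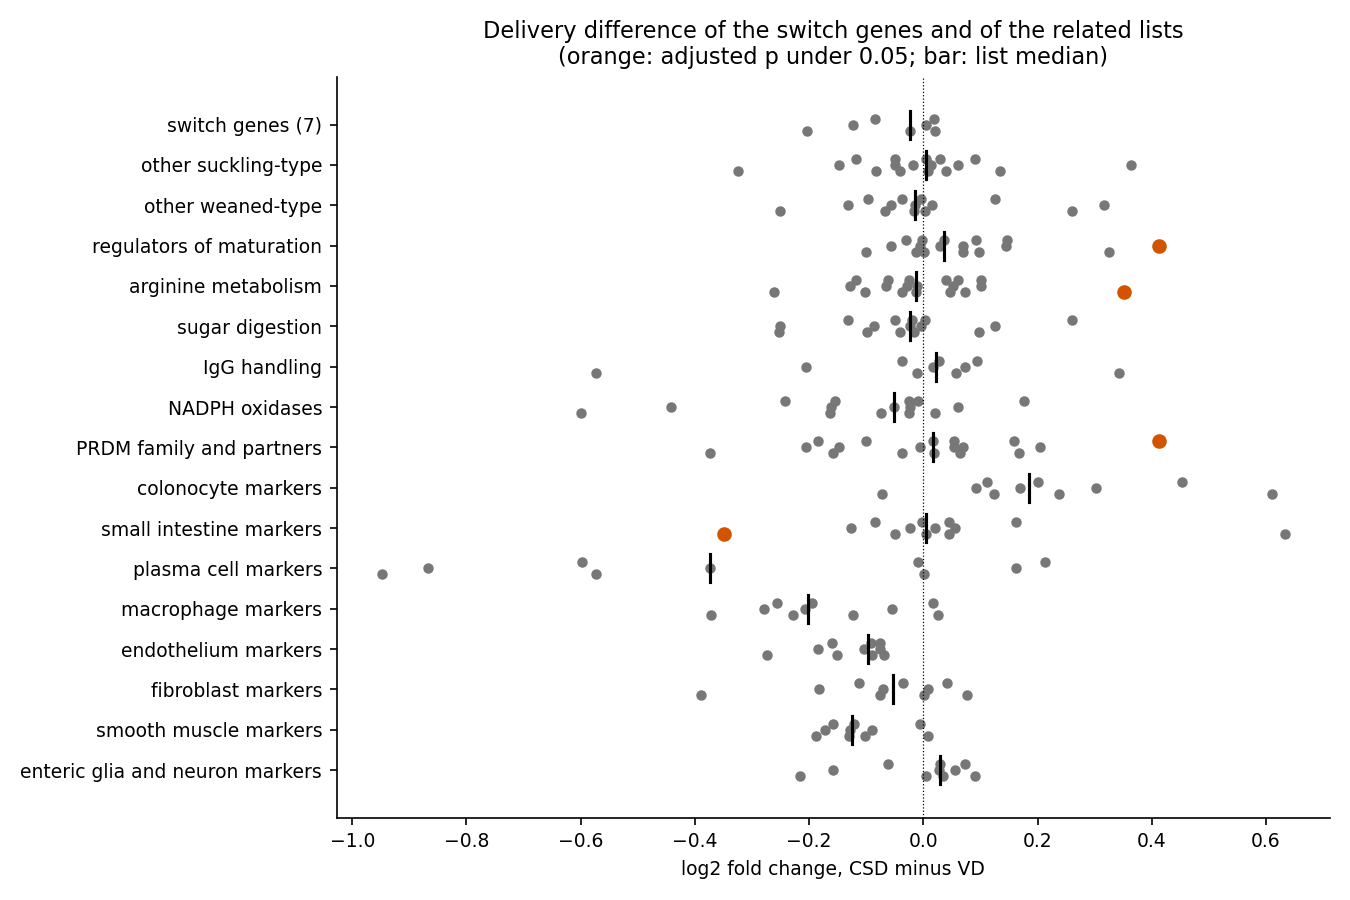
Log2 fold change, CSD minus VD, of the 7 switch genes, of the genes in 8 related lists and of 8 lists of cell type markers, 1 point per gene, with a bar at each list's median and orange for an adjusted p under 0.05. Called genes are Bcl6, which is in 2 lists, Agmat and Anpep; the 10 endothelium markers are all left of 0.

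Of 17 transcription factors and hormone receptors listed as regulators of intestinal maturation, 1 was called, and whether it acts in that maturation was not tested. Bcl6, a repressor that acts against Blimp-1 in B cells, had a mean of 9.03 ± 0.21 in CSD pups and 8.63 ± 0.16 in VD pups (SD, n = 8 each), and was higher in CSD by 0.41 (SE 0.09; limma adjusted p = 0.0409), with 4 CSD pups above all VD pups. Its fold change stayed between 0.28 and 0.56 under 38 alternatives, of which 24 ended the call, among them leaving out any 1 of CSD 1, 2, 3, 5, 6, 7 and 9 and VD 4, 5, 10 and 11 (limma adjusted p from 0.0532 to 0.0949). Beside it stood Gata6, a factor of gut epithelium, at 0.14 (limma adjusted p = 0.168). Gata4 was not well above background on any array. Among the 18 relatives and partners of Prdm1, Bcl6 was again the only one called. Prdm15, another gene of the PRDM family, had a fold change of 0.16 (SE 0.04; limma adjusted p = 0.0515), with all 8 CSD pups above all VD pups, and Ehmt2, a histone methyltransferase that works with Blimp-1, had -0.16 (limma adjusted p = 0.0684).

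Plasma cells, which use Prdm1, were followed by their own markers. Of the 9 measured, all were well above background on every array, 6 had a negative fold change, and none passed the test. The mean log2 intensity was 10.05 ± 0.34 in CSD pups and 10.42 ± 0.21 in VD pups (SD, n = 8 each), with summed intensities of 40307 ± 13842 (SD, n = 8) and 56673 ± 16013 (SD, n = 8). The one with the highest signal, Jchain, which joins the units of IgA, was at 13.98 and 15.07. Igha and Igj were not found under these names. Among the markers, Irf4, a factor that switches Prdm1 on in B cells, had a fold change of -0.37 (SE 0.10; limma adjusted p = 0.0809) and Creld2, which helps proteins fold, 0.21 in the other direction (limma adjusted p = 0.115). Mzb1 was at -0.87 (limma adjusted p = 0.162), Derl3 at -0.60 (limma adjusted p = 0.261) and Tnfrsf17 at -0.57 (limma adjusted p = 0.189). Fkbp11 was at 0.16 (limma adjusted p = 0.366), Xbp1 at -0.01 and Sdc1 at 0.002. At a limma unadjusted p under 0.05, 5 of the 9 were lower in CSD, beside 7.09% of all genes, and 1 was higher, beside 7.37%. The fold change of Prdm1 itself was 0.02. The colonocyte list, which also holds the goblet cell mucin Muc2 (0.20), went the other way, with 9 of 10 positive fold changes and none called. Its mean log2 intensities were 13.31 ± 0.17 in CSD pups and 13.08 ± 0.17 in VD pups (SD, n = 8 each). Summed intensities were 224304 ± 30911 (SD, n = 8) and 202577 ± 20235 (SD, n = 8), and the highest signal was that of the water channel Aqp8, at 16.44 and 16.33. The part of either cell type in the values of the switch genes was not tested.

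Around Ass1, 19 enzymes and carriers of arginine metabolism were measured and 1 was called. Agmat, the enzyme known for turning agmatine, a product of arginine, into putrescine, had a mean of 9.45 ± 0.12 in CSD pups and 9.11 ± 0.12 in VD pups (SD, n = 8 each). All 8 CSD pups lay above all 8 VD pups, and the fold change was 0.35 (SE 0.06, 95% CI 0.22 to 0.48; limma adjusted p = 0.0148). Under 38 alternatives it stayed between 0.22 and 0.42, and the call was lost in 7, of which the lowest value was that without the litter of mother 5 (limma adjusted p = 0.271). Nos3, the nitric oxide synthase of endothelium, had -0.26 (limma adjusted p = 0.152). The median fold change of the list was -0.01, with 8 genes positive and 11 negative.

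Around Lct, Sis and Treh, none of 15 genes of sugar digestion and transport was called. Khk, which phosphorylates fructose, had a fold change of -0.13 (limma adjusted p = 0.152) and Slc2a1, a glucose carrier, -0.25 (limma adjusted p = 0.205). Slc2a2 and Amy2a5 were not well above background on any array. Around Fcgrt, none of 10 genes of IgG handling was called: Cd74, the invariant chain that meets the receptor inside cells, had -0.57 (SE 0.15; limma adjusted p = 0.0698) with 6 CSD pups below all VD pups, and Trim21, a receptor for IgG in the cytosol, 0.34 (limma adjusted p = 0.145). Around Nox4, none of 15 NADPH oxidase subunits was called, 12 had a negative fold change, and 5 of these had an unadjusted p under 0.05, beside 7.09% of all genes, and 1 of the 3 positive ones, Noxa1 at 0.18 (limma adjusted p = 0.265), beside 7.37%. The smallest p values were those of subunits of the phagocyte enzyme, Ncf4 at -0.44 (SE 0.13; limma adjusted p = 0.117) and Cyba, which also pairs with Nox4, at -0.16 (limma adjusted p = 0.171), and the largest fold change was that of Rac2, a GTPase of blood cells, at -0.60 (limma adjusted p = 0.198). The macrophage markers given above also had mostly negative fold changes, and their part in these values was not tested. Nox3 and Duox1 were not well above background on any array.

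Other genes known to fall or rise at weaning gave no call in either direction. Of 17 other suckling-type genes, 9 had a positive and 8 a negative fold change, with a median of 0.004. Clca4a was at 0.36 (limma adjusted p = 0.535) and Dab2, an adaptor of endocytosis, at 0.13 (limma adjusted p = 0.540). Of 14 other weaned-type genes, 5 were positive and 9 negative, with a median of -0.02. Besides Khk, the smallest p was that of Mgam, the brush border enzyme maltase-glucoamylase, at 0.26 (limma adjusted p = 0.215). Folh1, Akp3 and Slc2a2 were not well above background on any array. Among the small intestine markers, Anpep was called, at -0.35 (SE 0.05; limma adjusted p = 0.00472), with means of 11.55 ± 0.11 in CSD pups and 11.88 ± 0.07 in VD pups (SD, n = 8 each) and all 8 CSD pups below all VD pups. The call was lost in 6 of 38 alternatives, one of them without the litter of mother 5 (-0.30, limma adjusted p = 0.125). The other members of that list were not, Fabp2 having 0.63 (limma adjusted p = 0.207).

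**Figure D5:**
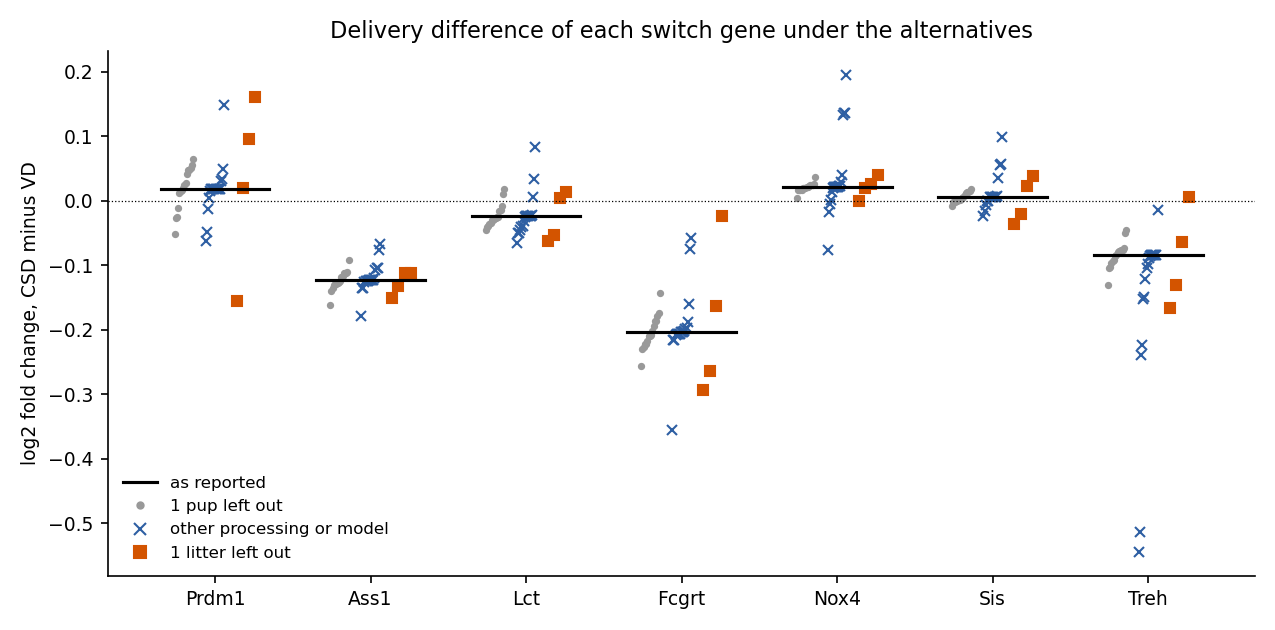
Log2 fold change, CSD minus VD, of each switch gene as reported (bar), with 1 pup left out (grey points), under other processing or models (blue crosses) and with 1 litter left out (orange squares). Ass1 stays between -0.18 and -0.07 and Fcgrt below 0 throughout, while Prdm1 runs from -0.16 to 0.16.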

How the data were processed

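RNA from the colon of 16 mouse pups (8 CSD, 8 VD) was measured on 1-colour Agilent arrays. The deposited scanner files hold each spot's intensity and its local background on a linear scale, made by the authors with Feature Extraction 12.0.3.2 and not normalized. The deposited gene matrix, used only as an alternative, holds log2 values that the authors corrected (the method is not given in the sources used here), quantile normalized and filtered with limma 3.38; on every array it correlated with the values below at r = 0.977 over 27022 genes. The array design in the files, 074809, differs from that in the study's methods.

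Here normexp (offset 50) was applied over all 62976 spots, control and outlier-marked spots were left out, and log2 values were quantile normalized (limma 3.58.1, R 4.3.3). Probes above the 5% quantile of their array on at least 4 arrays were averaged by gene name. lmFit and eBayes were run with fixed terms for delivery and sex and a random term for the mother (duplicateCorrelation, consensus correlation 0.015), with Benjamini-Hochberg adjustment over all 36711 genes and a threshold of 0.05. Litters were compared with litter and sex as fixed terms. Exact two-sided permutation tests over all 12870 splits of the pups ignore litter and sex and cannot go below 1.55e-04. The fit was tested on simulated data.

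The text names the 7 genes with every probe, every called gene of the other lists or else the 2 with the smallest p, and for each of the 7 the 3 genes with the highest Pearson r. Cell type markers, and further genes of lists that hold a called gene, were named after their values were seen. The genes and all lists were chosen with earlier results of these data known. Alternatives changed the background correction, normalization, filter, averaging of probes, model and pups included. One gene of the chosen set and some of the related lists are not reported here, nor is a planned difference between the suckling and weaned types that needs the first. The number of arrays and of litters limits the precision. Plots were drawn with matplotlib 3.10.9.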

Additional observations from a re-analysis of the deposited data

Results flagged for a closer look

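Treh in VD 8, at a log2 intensity of 6.65, lay apart from the 7 other VD pups, of which the next was at 6.43, a gap of 0.603 of the range of the group. It was 1 of 4 arrays on which the probe was well above background. The Nox4 probe A_55_P2719940 gave 6.26 in VD 11, with the next VD pup at 6.04 (0.630 of the range), and was not well above background there or on any other array. Both gaps passed the critical value of Dixon's test, which by its definition is passed by chance in about 5% of groups with normally spread values, and 26 groups were looked at.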

How the results depend on the processing

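Under up to 39 alternatives none of the 7 genes was called between CSD and VD, other than Fcgrt without the litter of mother 6 (-0.29, limma adjusted p = 0.0345), which made the count of members called 1. Ass1 kept its negative sign in all 38 (-0.18 to -0.07) and Fcgrt in all 38 (-0.36 to -0.02), and no member was called by sex, delivery by sex or within either pair of litters in up to 35 alternatives each. The count of all genes called, 460, was between 145 and 617 with 1 pup left out. It was 102 and 243 with normexp offsets of 0 and 16, 177 with the scanner-corrected intensity quantile normalized, 164 with it minus the 75th percentile, 170 in the deposited matrix, 992 without sex in the model, 12 and 0 on slides 1 and 2 alone, 0 in males, and 0 with litter means as samples, where fewer samples were tested. It was 212, 138, 189 and 2265 without the litters of mothers 3, 4, 5 and 6.

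Signs of fold changes near 0 turned as follows, and the cause was not tested. Prdm1 was -0.048 without sex, -0.013 on slide 2, -0.062 over litter means, -0.16 without the litter of mother 3 and between -0.053 and 0.065 with 1 pup left out. Lct, not well above background on any array, was 0.083 with the scanner-corrected intensity minus the 75th percentile, 0.0052 on slide 2, 0.034 in males, 0.0047 and 0.014 without the litters of mothers 4 and 6 and between -0.045 and 0.017 with 1 pup left out. Nox4 was -0.006 with offset 0 and -0.0013 without the litter of mother 4. With the scanner-corrected intensity Nox4 was -0.077 quantile normalized and -0.018 minus the 75th percentile. It kept its sign and was larger, at 0.135, with the probe of the highest mean per gene (limma adjusted p = 0.394). With only probes well above background on at least 4 arrays it was 0.133 (limma adjusted p = 0.365). In the deposited matrix it was 0.195 (limma adjusted p = 0.353). The bright probe of Nox4 alone, an alternative chosen after seeing the data, gave 0.14. Sis, likewise not well above background, was -0.0004 with offset 0, -0.023 on slide 2, -0.017 in males, -0.0008 over litter means, -0.021 and -0.037 without the litters of mothers 4 and 5 and between -0.0087 and 0.017 with 1 pup left out. Treh was 0.0053 without the litter of mother 4, and otherwise between -0.54 and -0.01, with an unadjusted p under 0.05 in 2 of 38 alternatives. The alternatives for Bcl6, Agmat and Anpep were also chosen after seeing the data.

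Pups of both groups shared the numbers 5 to 9 in their titles. Any 2 arrays correlated at 0.988 to 0.997. With each gene's group mean subtracted, same-numbered pups correlated at 0.12, 0.22, 0.02, -0.05 and 0.06. The VD pup that correlated most with the CSD pup was the same-numbered one for 5 and 6 and another for 7, 8 and 9. The labels give no pairing, and the reported fit does not pair the pups. With the replicate block, over these 10 pups, whose pairs had the same sex, 0 genes were called, and no member: Fcgrt was -0.08, Ass1 -0.08, Treh -0.12 (limma unadjusted p = 0.0172, adjusted p = 0.278) and Sis -0.0073. No member was called by delivery by sex or between litters with the block, in fits that leave few degrees of freedom, and sex itself could not be fitted, being the same within each pair.

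With 2 litters a group the intervals given limit what can be seen, and the signal was not well above background for Lct and Sis on any array and for Treh on all but 4.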
